A study of Homo sapiens with 32 samples.

Results

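Transcripts of the machinery for endoplasmic reticulum-associated degradation (ERAD) were examined in HCT116 cells: HERPUD1, SYVN1, SEL1L, DERL1, DERL2, DERL3, EDEM1, EDEM2, EDEM3 and OS9. These 10 genes are core components of the SYVN1 (HRD1) branch of the pathway, taken by symbol, and each matched 1 of the 60660 rows of the count table. Counts were found for 9 of the 10. DERL3 had no count in any of the 32 libraries.

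ERAD removes proteins that fail to fold in the endoplasmic reticulum (ER). EDEM proteins trim mannose from the N-linked glycans of misfolded glycoproteins, and the lectin OS9 recognises the trimmed glycan and hands the substrate to SEL1L, the adaptor of the membrane ubiquitin ligase SYVN1. HERPUD1 and the derlins belong to the same membrane complex, through which substrates pass back to the cytosol to be ubiquitinated and degraded by the proteasome. Tunicamycin blocks N-linked glycosylation, so that unfolded proteins build up in the ER and the unfolded protein response is switched on through its sensors IRE1, PERK and ATF6.

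The cells were HCT116, a human colorectal carcinoma line, with a doxycycline-inducible OsTIR1 transgene (genotype Tet-OsTIR1-PURO) shared by all groups. Parental cells were compared with single-cell Cas9 knockout clones of IGF2BP3 or IGF2BP2, RNA-binding proteins that attach to messenger RNAs and affect their stability and translation. IGF2BP3 knockout clones A3 and E4 share 1 guide and clone D12 has another; IGF2BP2 knockout clones B7 and F6 share 1 guide and clone G6 has another. Each of the 6 clones and each of 2 parental samples was sequenced with DMSO and with tunicamycin, as replicate 1 and replicate 2, which gave 4 parental, 6 IGF2BP3 knockout and 6 IGF2BP2 knockout libraries per treatment. Tunicamycin was given at 5 µg/mL for 4 h to parental cells and IGF2BP3 knockout clones, per the labels. No tunicamycin dose or time is given in the sources used here for IGF2BP2 knockout clones. The treatment field of the clone G6 control libraries names tunicamycin while their titles and library names say control. HERPUD1 stood at 34.0 and 31.2 CPM in those 2 libraries, and they were kept with DMSO by title.

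Library totals ran from 16651438 to 24913021 counts. Levels are given as CPM, counts scaled to library size with TMM factors (edgeR's correction for library makeup) over all 32 libraries. Genes detected numbered 21259 to 23139 in replicate 1 and 23423 to 24267 in replicate 2. IGF2BP3 RNA was at 18.7 to 41.8 CPM in its knockout DMSO libraries and 70.1 to 82.8 CPM in parental ones. IGF2BP2 RNA was at 81.3 to 92.8 CPM in its knockout DMSO libraries and 159 to 195 CPM in parental ones, so both edited transcripts were lower but still counted. Tunicamycin raised the ER chaperone HSPA5 from 977 to 9944 CPM and the stress transcription factor DDIT3 from 2.12 to 236 CPM (group means of parental cells). The epithelial markers EPCAM, CDH1, KRT8, KRT18, KRT19 and CDX2 were present in every library, and VIL1 reached at most 0.147 CPM. Of 5 markers of other cell types, PTPRC, CD3E and PECAM1 stayed at or below 0.144 CPM in every library. Their summed level with PDGFRB and COL1A1 was 5.12 to 11.1 CPM in DMSO and 5.07 to 12.3 CPM in tunicamycin libraries, nearly all of it COL1A1. The libraries are bulk, so a level is an average over cells, and fewer cells with a transcript cannot be told apart from less of it per cell. Nothing in the labels says whether the 2 replicates of a line were separate cultures; p-values measure the spread between these libraries, which may be technical.

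Promoter sequence was available for 8 of the 10 genes, as RefSeq windows on GRCh38.p14 of 250 bases before and 50 bases after the transcription start. Both strands were searched for the ER stress response element (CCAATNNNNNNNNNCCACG), the ER stress response element II (ATTGGNCCACG), the XBP1 and ATF6 site TGACGTGG, the C/EBP-ATF response element core TGATGNAA, and the shorter CCACG and CCAAT, which lie within the first 2 elements. CCACG read on the other strand is also part of TGACGTGG. The stretches shown begin 180 bases before the RefSeq start and end before any base that GENCODE 29 places inside the gene. They are the 4 strongly raised genes with such a stretch, HERPUD1 (chr16:56931962-56932047, plus strand), SYVN1 (chr11:65134570-65134699, minus strand), SEL1L (chr14:81533904-81534033, minus strand) and EDEM1 (chr3:5187527-5187645, plus strand), followed by 2 weakly raised ones for contrast, EDEM3 (chr1:184754914-184755038, minus strand) and EDEM2 (chr20:35147387-35147516, minus strand). Capitals mark every match to a searched motif on either strand:
HERPUD1: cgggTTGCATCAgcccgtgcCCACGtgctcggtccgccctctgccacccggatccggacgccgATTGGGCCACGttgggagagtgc
SYVN1: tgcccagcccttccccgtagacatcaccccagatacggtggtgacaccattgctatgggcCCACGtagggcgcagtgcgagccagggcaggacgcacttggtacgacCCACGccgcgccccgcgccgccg
SEL1L: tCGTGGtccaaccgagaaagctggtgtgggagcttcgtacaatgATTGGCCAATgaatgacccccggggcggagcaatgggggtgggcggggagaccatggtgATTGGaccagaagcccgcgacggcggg
EDEM1: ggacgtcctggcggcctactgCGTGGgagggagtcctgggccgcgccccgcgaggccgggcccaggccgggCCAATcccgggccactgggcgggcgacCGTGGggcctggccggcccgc
EDEM3: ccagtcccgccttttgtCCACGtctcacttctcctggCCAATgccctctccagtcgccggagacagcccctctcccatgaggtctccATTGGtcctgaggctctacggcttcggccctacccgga
EDEM2: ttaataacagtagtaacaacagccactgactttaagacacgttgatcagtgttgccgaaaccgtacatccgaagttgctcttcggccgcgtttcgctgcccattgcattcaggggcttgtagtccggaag

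HERPUD1 alone among the 8 windows held an ER stress response element II, ATTGGGCCACG at bases -117 to -107, a motif found in 0.0541% of 35116 promoters of the same length. The same window held TGATGNAA, read on the other strand as TTGCATCA at -176 to -169, which 3.62% of promoters hold. None of the 8 held the full ER stress response element (0.0769% of promoters) or TGACGTGG (0.729%) in this window. The short CCACG was in 6 of 8 windows against 38.1% of promoters, and CCAAT was in 6 of 8 against 34.6%. Both short motifs occurred in strongly raised SEL1L and EDEM1 and also in weakly raised EDEM3 and OS9, and the EDEM2 window held neither. A match is a description of letters and not of a bound site.

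All 9 counted ERAD components rose with tunicamycin in parental cells, in IGF2BP3 knockout cells and in IGF2BP2 knockout cells, at an adjusted p below 0.05 (edgeR quasi-likelihood test, Benjamini-Hochberg over all genes tested). The genes tested that were called higher came to 12.5% in parental, 16.2% in IGF2BP3 knockout and 19.2% in IGF2BP2 knockout cells. A log2 fold change above 1 was reached by HERPUD1, SYVN1, SEL1L, EDEM1 and DERL2 in each genotype, against 2.52%, 2.29% and 2.42% of genes tested. The median log2 fold change of the 9 was 1.88, 1.79 and 1.87 in the same order, and that of all genes tested was -0.01 in each. For each of the 9 genes the lowest tunicamycin library of a genotype was above its highest DMSO library; 14%, 9.09% and 9.29% of genes with a mean of at least 1 CPM showed this in parental, IGF2BP3 knockout and IGF2BP2 knockout cells.

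HERPUD1 (ENSG00000051108, chr16:56932048-56944863, plus strand), a membrane protein with a ubiquitin-like domain that binds the SYVN1 ligase, had the strongest response of the 10. Parental DMSO libraries had 30.9, 31.7, 28.7 and 27.8 CPM, and parental tunicamycin libraries had 1199, 1244, 1080 and 1078 CPM. The IGF2BP3 knockout libraries ran from 28.4 through a median of 30.8 to 33.1 CPM in DMSO and from 956 through 1064 to 1190 CPM in tunicamycin. In the IGF2BP2 knockout libraries the lowest, median and highest values were 27.1, 30.3 and 39.3 CPM in DMSO and 1097, 1130 and 1190 CPM in tunicamycin. Within each treatment the 3 genotypes overlapped, and the lowest treated library (956 CPM) lay far above the highest untreated one (39.3 CPM). On the log2 scale the rise was 5.27 (SE 0.0724, adjusted p = 2.58e-10) in parental cells, or 38.7-fold. It came to 5.11 (SE 0.0636, adjusted p = 1.29e-15) in IGF2BP3 knockout and 5.18 (SE 0.0666, adjusted p = 1.42e-15) in IGF2BP2 knockout cells. By fold change HERPUD1 ranked 7 of 14398, 8 of 14265 and 5 of 14145 genes tested.

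SYVN1 (ENSG00000162298, chr11:65121780-65134533, minus strand) encodes the ubiquitin ligase itself. It stood at 31.9, 29.3, 30.7 and 34.0 CPM in parental DMSO libraries and at 217, 217, 239 and 225 CPM in parental tunicamycin libraries. Lowest, median and highest values in tunicamycin were 204, 218 and 236 CPM in IGF2BP3 knockout and 204, 221 and 235 CPM in IGF2BP2 knockout cells. The 16 tunicamycin libraries thus overlapped across genotypes. On the log2 scale SYVN1 rose by 2.84 (SE 0.0694, adjusted p = 6.44e-09) in parental, 2.72 (SE 0.0548, adjusted p = 1.37e-13) in IGF2BP3 knockout and 2.78 (SE 0.0424, adjusted p = 4.89e-15) in IGF2BP2 knockout cells. SYVN1 exons share 398 bases with FAU on the same strand and 356 with MRPL49 on the opposite strand in GENCODE 29, and how reads there were assigned is not given in the sources used here.

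SEL1L (ENSG00000071537, chr14:81471549-81533861, minus strand), the adaptor that holds SYVN1 stable and receives substrates, had 79.3, 80.5, 77.5 and 78.3 CPM in parental DMSO libraries. Parental tunicamycin libraries had 543, 394, 582 and 515 CPM, the lowest being replicate 1 of parental sample 2. The IGF2BP3 knockout tunicamycin libraries ran from 405 through 525 to 585 CPM and the IGF2BP2 knockout ones from 493 through 569 to 580 CPM. Treated and untreated libraries did not overlap for SEL1L in any genotype. Log2 fold changes were 2.69 (SE 0.103, adjusted p = 1e-07), 2.61 (SE 0.0836, adjusted p = 1.42e-11) and 2.75 (SE 0.051, adjusted p = 2.66e-14) in parental, IGF2BP3 knockout and IGF2BP2 knockout cells.

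The derlins are membrane proteins of the rhomboid fold that form part of the passage out of the ER, and the 2 that were counted responded unequally. DERL2 (ENSG00000072849, chr17:5471251-5486811, minus strand) had 32, 32.5, 32.1 and 30.7 CPM in parental DMSO and 118, 118, 112 and 120 CPM in parental tunicamycin libraries. DERL1 (ENSG00000136986, chr8:123013164-123042423, minus strand) had 104, 102, 93.7 and 94.6 CPM in parental DMSO and 137, 133, 121 and 123 CPM in parental tunicamycin libraries. Treated and untreated libraries did not overlap for either gene, and the gap was wide for DERL2 and narrow for DERL1. The log2 fold change of DERL2 was 1.88 (SE 0.048, adjusted p = 8.09e-09) in parental, 1.79 (SE 0.0455, adjusted p = 1.4e-12) in IGF2BP3 knockout and 1.87 (SE 0.0359, adjusted p = 3.27e-14) in IGF2BP2 knockout cells. That of DERL1 was 0.39 (SE 0.0553, adjusted p = 0.000607), 0.27 (SE 0.04, adjusted p = 9.86e-05) and 0.37 (SE 0.0356, adjusted p = 1.13e-06) in the same order, the smallest response of the 9 in each genotype. DERL3 (ENSG00000099958, chr22:23834503-23839128, minus strand) had 0 counts in 32 libraries, in DMSO and in tunicamycin alike. A count of 0 allows up to 3 counts, which is 0.122 to 0.192 CPM by library and covers counting error only. Of its 3796 exon bases, 2923 overlap exons of SMARCB1 on the opposite strand in GENCODE 29, so the row may not show whether the gene was transcribed; how overlapping reads were counted is not given in the sources used here.

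Among the genes of mannose trimming and glycan recognition, EDEM1 rose strongly and EDEM2, EDEM3 and OS9 rose weakly. EDEM1 (ENSG00000134109, chr3:5187646-5219957, plus strand) had 15.1 and 16.8 CPM in the replicate 1 and 23.5 and 22.3 CPM in the replicate 2 parental DMSO libraries. In parental tunicamycin libraries it had 76.7 and 68.0 CPM in replicate 1 and 112 and 111 CPM in replicate 2. Treated and untreated libraries did not overlap, and within each treatment replicate 2 was higher. EDEM1 rose on the log2 scale by 2.25 (SE 0.21, adjusted p = 3.86e-05) in parental, 2.31 (SE 0.147, adjusted p = 2.1e-08) in IGF2BP3 knockout and 2.45 (SE 0.13, adjusted p = 2.11e-09) in IGF2BP2 knockout cells, with the largest SE of the 9 in each.

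OS9 (ENSG00000135506, chr12:57693955-57721557, plus strand) had 79.4, 82.2, 69.0 and 70.3 CPM in parental DMSO and 109, 113, 103 and 104 CPM in parental tunicamycin libraries. EDEM2 (ENSG00000088298, chr20:35115357-35147364, minus strand) had 23.8, 24.0, 21.5 and 20.9 CPM and 32.6, 32, 28.5 and 30.3 CPM in the same groups. EDEM3 (ENSG00000116406, chr1:184690231-184754913, minus strand) had 38.2, 34.8, 39.8 and 33.4 CPM in DMSO and 55.7, 40.1, 55.2 and 51.2 CPM in tunicamycin. The separation was narrow for EDEM3, whose lowest treated parental library was 40.1 CPM and highest untreated one 39.8 CPM. It was also narrow for EDEM2 in IGF2BP2 knockout cells, where the lowest treated library was 27.7 CPM and the highest untreated one 27.4 CPM. In parental cells the log2 fold changes were 0.52 (SE 0.0608, adjusted p = 0.000179) for OS9, 0.46 (SE 0.0666, adjusted p = 0.0007) for EDEM2 and 0.47 (SE 0.0795, adjusted p = 0.00175) for EDEM3. Across the knockout genotypes OS9 rose by 0.48 and 0.42, EDEM2 by 0.42 and 0.42 and EDEM3 by 0.44 and 0.61 on the log2 scale, for IGF2BP3 and IGF2BP2 knockout in that order.

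**Figure D1:**
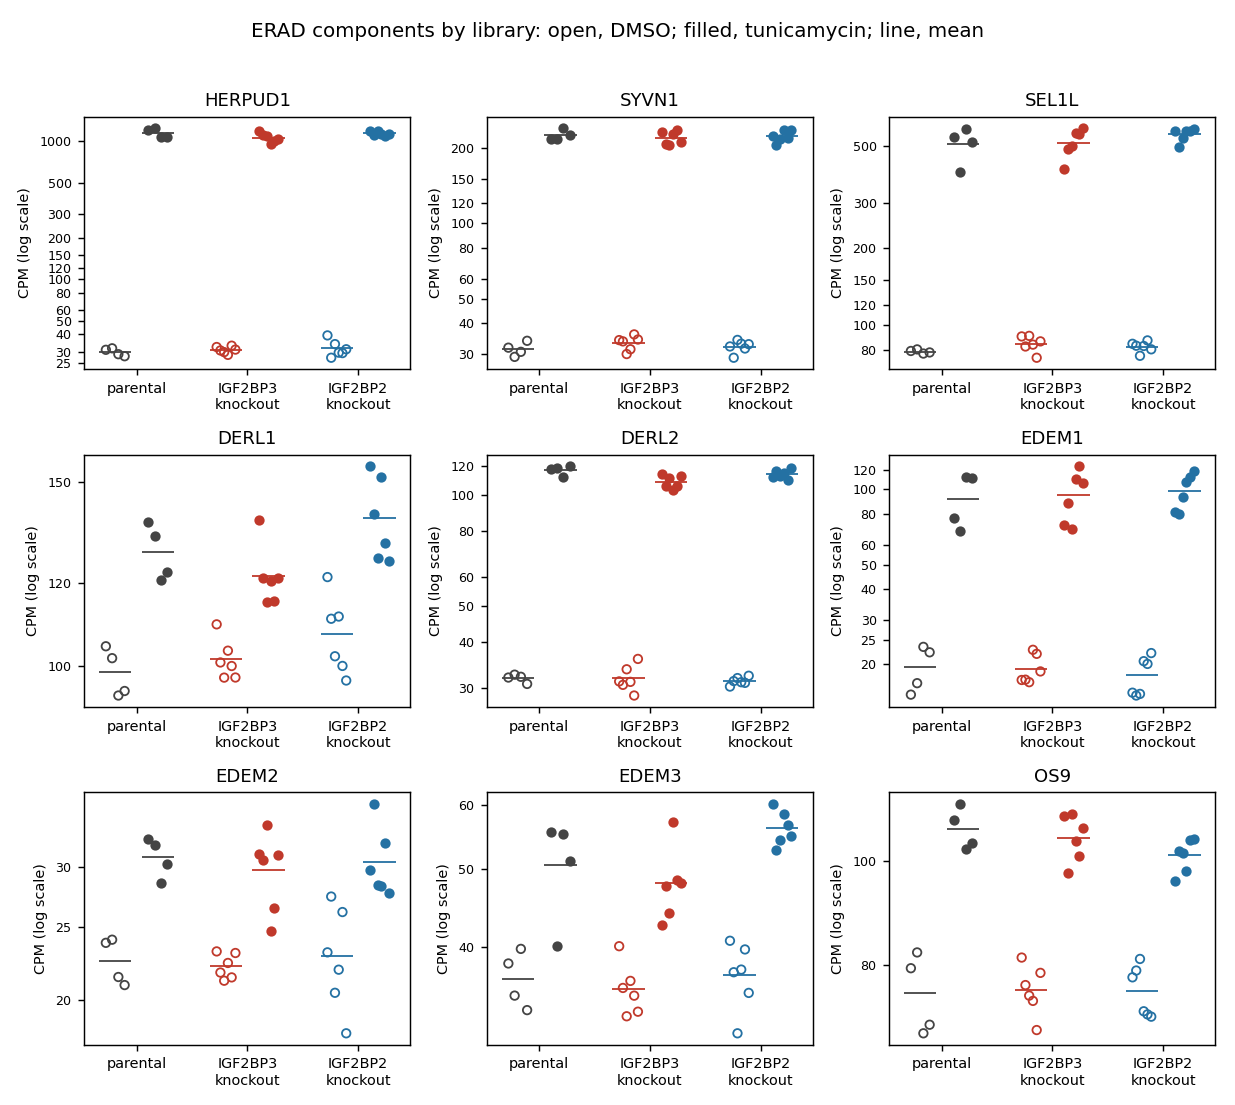
CPM (vertical axis, log scale, a separate range per gene) of the 9 counted ERAD components in every library, open for DMSO and filled for tunicamycin, by genotype; horizontal lines are group means. Every gene separated by treatment within each genotype, from HERPUD1 (28.4 to 33.1 against 956 to 1190 CPM in IGF2BP3 knockout) to DERL1 (97.5 to 110 against 115 to 138 CPM), and the genotypes overlapped within each treatment.

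Per kilobase of exon (union of the GENCODE 29 exons; the annotation used for counting is not given in the sources used here), the order of levels changed with treatment. In parental DMSO libraries OS9 was highest at 14.6 ± 1.27 CPM per kb (SD, n = 4). DERL1 followed at 13.9 ± 0.747, EDEM2 at 11.8 ± 0.827, SEL1L at 8.25 ± 0.134, HERPUD1 at 5.77 ± 0.356 and SYVN1 at 5.73 ± 0.36 CPM per kb. DERL2 had 4.98 ± 0.123, EDEM3 4.68 ± 0.378 and EDEM1 2.87 ± 0.605 CPM per kb. The neighbours OS9 and DERL1, HERPUD1 and SYVN1, and DERL2 and EDEM3 lay within 1 SD of each other's ranges, while the other steps exceeded that spread. With tunicamycin HERPUD1 led at 223 ± 16.3 CPM per kb, SEL1L had 53.2 ± 8.49 and SYVN1 40.9 ± 1.87 CPM per kb. OS9 then stood at 20.8 ± 0.943, DERL2 at 18.3 ± 0.563, DERL1 at 18.2 ± 1.13, EDEM2 at 16.1 ± 0.967, EDEM1 at 13.6 ± 3.36 and EDEM3 at 6.48 ± 0.928 CPM per kb. In this second order the ranges of mean ± SD overlapped for DERL2 and DERL1, for DERL1 and EDEM2, and for EDEM2 and EDEM1.

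Summed over the 10 rows, ERAD component RNA rose from 424 ± 11.6 CPM to 2410 ± 63.4 CPM (SD, n = 4) in parental cells. The sum rose from 435 ± 13.6 to 2307 ± 40.8 CPM in IGF2BP3 knockout and from 438 ± 15.4 to 2455 ± 64.3 CPM in IGF2BP2 knockout cells (SD, n = 6). The makeup of the sum shifted towards the ligase complex. HERPUD1 was 7.02% of it in parental DMSO and 47.7% in parental tunicamycin libraries, SEL1L went from 18.6% to 21.1%, and SYVN1 from 7.42% to 9.32%. DERL1 went from 23.2% to 5.34% and OS9 from 17.7% to 4.45%.

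The knockouts were next compared with parental cells and with each other within each treatment, which asks whether either RNA-binding protein is needed for basal or stressed ERAD component levels. None of the 9 counted genes was called in any of the 6 comparisons by edgeR's quasi-likelihood test, and DESeq2 also called 0 of 9 in each. The background was also low: in DMSO, 1.61% of genes tested were called for IGF2BP3 knockout against parental, 0.0137% for IGF2BP2 knockout against parental and 0.589% for IGF2BP3 against IGF2BP2 knockout. In tunicamycin these shares were 0.718%, 0.00694% and 0.391%. At an unadjusted p below 0.05 there were 0 of 9 in each of the 3 DMSO comparisons, against 13.7%, 4.74% and 14% of genes tested. In tunicamycin there were 1, 0 and 2 of 9 in the same order, against 10.3%, 6.97% and 14.7%. For every gene of the 9 the libraries of the groups compared overlapped. Groups without overlap were found for 4.9%, 1.1% and 1.54% of genes with a mean of at least 1 CPM in DMSO and for 3.35%, 1.55% and 1.39% in tunicamycin. The parental libraries serve as control in both knockout comparisons.

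In DMSO the log2 differences of IGF2BP3 knockout from parental ran from -0.05 for EDEM3 to 0.10 for SEL1L, and the 95% intervals together spanned -0.31 to 0.27. Those of IGF2BP2 knockout ran from -0.10 for EDEM1 to 0.12 for DERL1, with intervals spanning -0.44 to 0.30. In tunicamycin the IGF2BP3 knockout differences from parental ran from -0.11 for HERPUD1 to 0.05 for EDEM1. DERL2 had the smallest p of that comparison, at -0.10 on the log2 scale (109 ± 4.6 against 117 ± 3.59 CPM; edgeR adjusted p = 0.471). For IGF2BP2 knockout in tunicamycin they ran from -0.08 for OS9 to 0.16 for EDEM3. EDEM1 had the widest interval in each of these comparisons. The HERPUD1 interval in tunicamycin was -0.24 to 0.02 for IGF2BP3 knockout and -0.12 to 0.11 for IGF2BP2 knockout against parental.

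Between the knockouts in tunicamycin, EDEM3 and DERL1 were the genes with an unadjusted p below 0.05. EDEM3 ran from 42.6 through a median of 47.8 to 57.2 CPM in IGF2BP3 knockout and from 52.7 through 55.9 to 60.3 CPM in IGF2BP2 knockout libraries, a log2 difference of -0.23 (SE 0.0716, adjusted p = 0.161). The lowest 5 IGF2BP3 knockout libraries lay below every IGF2BP2 knockout library and the remaining one, clone A3 replicate 2, lay within their range. DERL1 ran from 115 through 121 to 138 CPM against 126 through 136 to 155 CPM, a log2 difference of -0.19 (SE 0.0639, adjusted p = 0.197). Fitted with all 32 libraries together, both differences passed the threshold, at -0.23 with adjusted p = 0.0299 for EDEM3 and -0.18 with adjusted p = 0.0215 for DERL1. That fit called 7.59% of all genes tested, against 0.391% with only the libraries compared. Libraries of 1 clone are not independent, and the 2 knockouts have 3 clones each.

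The size of the tunicamycin response was compared between genotypes by the interaction of treatment with genotype. Fitted per library with the filter on low counts, edgeR called no gene in the 3 interaction tests, so the background was 0% in each, and DESeq2 called 0 of the 9. At an unadjusted p below 0.05 stood 255, 213 and 271 genes (1.67%, 1.4% and 1.82% of those tested) for IGF2BP3 knockout against parental, IGF2BP2 knockout against parental and IGF2BP3 against IGF2BP2 knockout, and none of the 9 was among them. The HERPUD1 response differed from parental by -0.15 (95% interval -0.34 to 0.03) in IGF2BP3 knockout and by -0.10 (-0.31 to 0.11) in IGF2BP2 knockout cells on the log2 scale. For IGF2BP3 knockout, the 9 differences from parental cells ran from -0.15 for HERPUD1 to 0.07 (-0.49 to 0.62) for EDEM1. Their median was -0.07, against 0.01 for all genes tested. The 9 genes were measured in the same libraries, so their directions are not separate observations. For IGF2BP2 knockout, the median was -0.02 against 0.00. EDEM3 differed by 0.15 (-0.04 to 0.33) and EDEM1 by 0.20 (-0.31 to 0.72) in IGF2BP2 knockout cells. These intervals take their error from the spread between libraries, and libraries of 1 clone or parental sample are not independent. They may therefore be too narrow for a difference between genotypes. Fewer genes had an unadjusted p below 0.05 than that threshold gives when no gene differs, so the intervals may instead be too wide. Neither was tested, and the intervals do not show that the responses were equal.

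**Figure D2:**
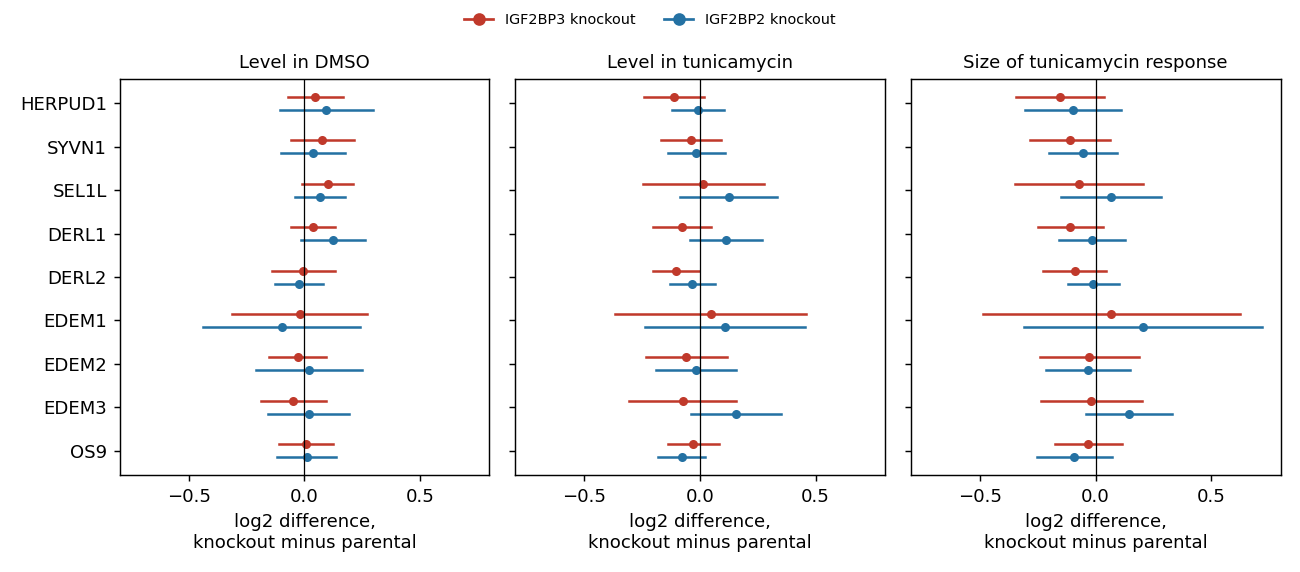
Log2 difference between knockout and parental cells (horizontal axis) for 9 ERAD components in DMSO, in tunicamycin and in the size of the tunicamycin response; points are edgeR estimates and lines 95% intervals. The points lie between -0.15 and 0.20, the EDEM1 intervals are the widest, and the only interval that leaves out 0 is DERL2 for IGF2BP3 knockout in tunicamycin, whose upper end is just below it.

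Responses were also read line by line, as the mean log2 change over the 2 replicates of each clone or parental sample. In each of the 9 genes all 16 pairs of a treated and an untreated library of the same line and replicate rose. The share of all genes that rose in all 16 was not counted. HERPUD1 ranged from 5.05 in clone D12 to 5.29 in clone F6, SYVN1 from 2.66 in D12 to 2.86 in parental sample 1, and SEL1L from 2.45 in A3 to 2.84 in parental sample 1. EDEM1 ranged from 2.16 in A3 to 2.51 in G6, and DERL2 from 1.69 in E4 to 1.91 in parental sample 2. The weakly raised genes stayed below 1 in every line, with OS9 at 0.37 to 0.52, EDEM3 at 0.37 to 0.72, EDEM2 at 0.28 to 0.55 and DERL1 at 0.24 to 0.40. The smallest single pair of the 9 genes was EDEM3 in clone A3 replicate 1, at 0.09.

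**Figure D3:**
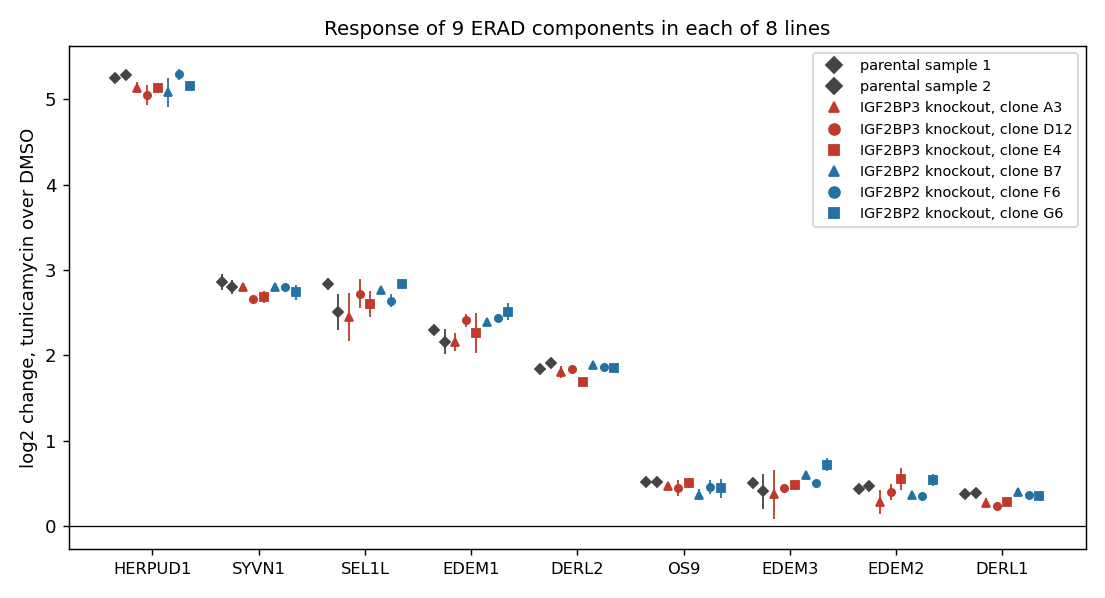
Log2 change from DMSO to tunicamycin (vertical axis) of 9 ERAD components in 2 parental samples and 6 knockout clones; symbols are means of 2 replicates and bars join the replicates. HERPUD1 lies between 5.05 and 5.29 in all 8 lines, 4 genes lie between 1.69 and 2.86, and the last 4 lie between 0.24 and 0.72.

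Clones of 1 genotype were then compared with treatment as a covariate, which measures how far ERAD component levels differ between cell lines with the same edited gene. Among the 3 IGF2BP3 knockout clones none of the 9 was called by edgeR or by DESeq2, against 7.63% of genes tested by edgeR. DERL2 was the only one with an unadjusted p below 0.05, against 20.5% of genes tested (adjusted p = 0.232). Among the 3 IGF2BP2 knockout clones DERL1 and EDEM2 were called, 2 of 9 against 26.4% of genes tested, a share near the background. At an unadjusted p below 0.05 there were 4 of 9, against 37.3%. With a block for replicate number edgeR called 6 of 9, in a fit that called 41.3% of genes tested. The labels do not say that a replicate number pairs samples. DERL1 (adjusted p = 0.00124) was highest in clone B7 in both treatments, with 117, 105 and 99.5 CPM in B7, F6 and G6 in DMSO and 154, 136 and 126 CPM in tunicamycin. EDEM2 (adjusted p = 0.00203) was highest in clone F6, with 22.5, 26.8 and 19.3 CPM in B7, F6 and G6 in DMSO and 29, 34.3 and 28.1 CPM in tunicamycin. Clones B7 and F6 share a guide, and their means also differed, but B7 against F6 was not tested by itself. Clone G6, which has the other guide, was lowest for both genes in both treatments. Without replicate 1, EDEM1 alone was called among the IGF2BP3 knockout clones (edgeR adjusted p = 0.0324), in a fit that called 19.8% of genes tested. For the size of the tunicamycin response among clones, edgeR called 0 of 14265 genes tested in IGF2BP3 knockout and 0 of 14145 in IGF2BP2 knockout, and DESeq2 called 1 and 2. With no filter on low counts edgeR called 2 and 68 genes, none of them among the 9. The 85 and 193 genes with an unadjusted p below 0.05 (0.596% and 1.36%) held none of the 9, nor did the DESeq2 calls. Between the 2 parental samples no gene was called by edgeR, and DESeq2 called 0 of the 9. An unadjusted p below 0.05 was reached by 254 genes (1.76%), and of the 9 only by EDEM3, which was at a log2 difference of -0.24 in parental sample 2 from sample 1 (edgeR adjusted p = 1). Without replicate 2, SEL1L (-0.26, adjusted p = 0.00397) and EDEM3 (-0.33, adjusted p = 0.00758) were called lower in parental sample 2, in a fit that called 2.15% of genes tested.

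EDEM1 differed by replicate number in every line. Replicate 2 was above replicate 1 in 16 of 16 pairings of line and treatment, by 0.47 on the log2 scale on average (0.14 to 0.70). No other member was above in all 16. Replicate 2 was above in 12 of 16 for SYVN1, and in only 1 for EDEM2, 2 for DERL1 and 3 for HERPUD1. The share of all genes above in all 16 was not counted, so the shift is not shown to be particular to EDEM1. The EDEM1 response within replicate 1 was 2.17, 2.14 and 2.47 in parental, IGF2BP3 knockout and IGF2BP2 knockout lines, and within replicate 2 it was 2.28, 2.41 and 2.42. Its rise was thus present in each replicate, and the part of the replicate difference in its wide intervals was not tested.

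A list of 56 other ERAD genes covered luminal partners, ubiquitin-conjugating enzymes, other ER membrane ligases, the ATPase p97 and its adaptors, cytosolic handling and deubiquitination, and membrane proteases and scaffolds, and all 56 were tested. In parental cells 13 were called higher and 8 lower, against 12.5% and 14.3% of genes tested, and the median log2 fold change was 0.04. In IGF2BP3 knockout cells 14 were higher and 10 lower, against 16.2% and 17.6% of genes tested (median 0.03). In IGF2BP2 knockout cells 17 were higher and 11 lower, against 19.2% and 20.9% (median -0.00). The 13 and the 8 called in parental cells had the same direction and call in all 3 genotypes. By role in parental cells, the luminal factors and partners had 4 of 8 higher and none lower, the membrane proteases and scaffolds 2 of 8 higher, and the p97 group 3 of 10 higher and 1 lower. The conjugating enzymes had 1 of 5 higher and 2 lower, the other ligases 1 of 9 higher and 2 lower, and the cytosolic group 2 of 16 higher and 3 lower. Between genotypes, edgeR fitted on only the groups compared called 0 of the 56 in each of the 6 comparisons and 3 interactions. DESeq2 called 0 in the interactions and 1 in each of 3 genotype comparisons: RNF145 in IGF2BP3 knockout against parental in DMSO (-0.15, adjusted p = 0.0404), and between IGF2BP3 and IGF2BP2 knockout UFD1 in DMSO (0.17, adjusted p = 0.00554) and UBXN8 in tunicamycin (-0.44, adjusted p = 0.00944), all as log2 differences. Of all genes tested, DESeq2 called 3.48%, 2.48% and 2.69% in these 3 comparisons, in the same order. The edgeR fit over all 32 libraries called 3 of the 56 between the knockouts in DMSO and 7 in tunicamycin, against 5.92% and 7.59% of genes tested. UFD1, UBXN8 and ERLIN2 were in both, and RNF170, NPLOC4, FAF2 and RHBDD1 were called in tunicamycin only. Against parental cells that fit called UFD1 for IGF2BP3 knockout in DMSO (0.15, adjusted p = 0.0456). It also called ERLIN2 for IGF2BP2 knockout in tunicamycin (0.29, adjusted p = 0.0369). Of all genes tested it called 3.25% and 1.57% in these comparisons. Without clone E4, edgeR called YOD1 in IGF2BP3 knockout against parental in DMSO (0.26, adjusted p = 0.0382, 1.92% of genes called). Between the knockouts in DMSO it called ERLIN2 without the DMSO libraries of clone G6 (-0.51, adjusted p = 0.0402, 1.36% of genes called). With the replicate block it called UFD1 there (0.18, adjusted p = 0.0425, 1.16%). In tunicamycin it called UBXN8 between the knockouts without clone F6 (-0.52, adjusted p = 0.0414, 1.51%). UBXN8 was also called there with no filter on low counts (-0.44, edgeR adjusted p = 0.0273, 0.565%). These genes were named after their values were seen.

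The 6 largest rises and 6 largest falls in parental cells, among genes called alike in all 3 genotypes, were as follows. SELENOK, a selenoprotein of the ER membrane that binds derlins and p97, rose from 30.4 ± 3.19 to 96.5 ± 7.51 CPM in parental cells (SD, n = 4), or by 1.67 on the log2 scale. SELENOS, a related selenoprotein that recruits p97, rose by 0.92 on the log2 scale. TXNDC11, a thioredoxin-domain partner of EDEM proteins, rose by 1.03, and the ER reductase DNAJC10, which also works with EDEM1, by 0.59. UBE2J1, the ER membrane conjugating enzyme that serves SYVN1, rose by 0.89, and ERLEC1, a lectin akin to OS9, by 0.65. The edgeR adjusted p of these 6 was at most 0.00107 in parental cells, and SELENOK rose by 1.44 in IGF2BP3 knockout and 1.62 in IGF2BP2 knockout cells. On the other side UBL4A, a subunit of the cytosolic BAG6 chaperone complex, fell from 59.9 ± 3.71 to 29.5 ± 3.57 CPM (SD, n = 4) in parental cells; the log2 differences were -1.02 there and -0.82 and -0.86 in the IGF2BP3 and IGF2BP2 knockouts. Smaller falls in parental cells were -0.43 for the ubiquitin shuttle UBQLN2, -0.39 for the ligase RNF145, -0.31 for the ligase TRIM13, -0.26 for the conjugating enzyme UBE2G2 and -0.22 for the deubiquitinase YOD1.

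**Figure D4:**
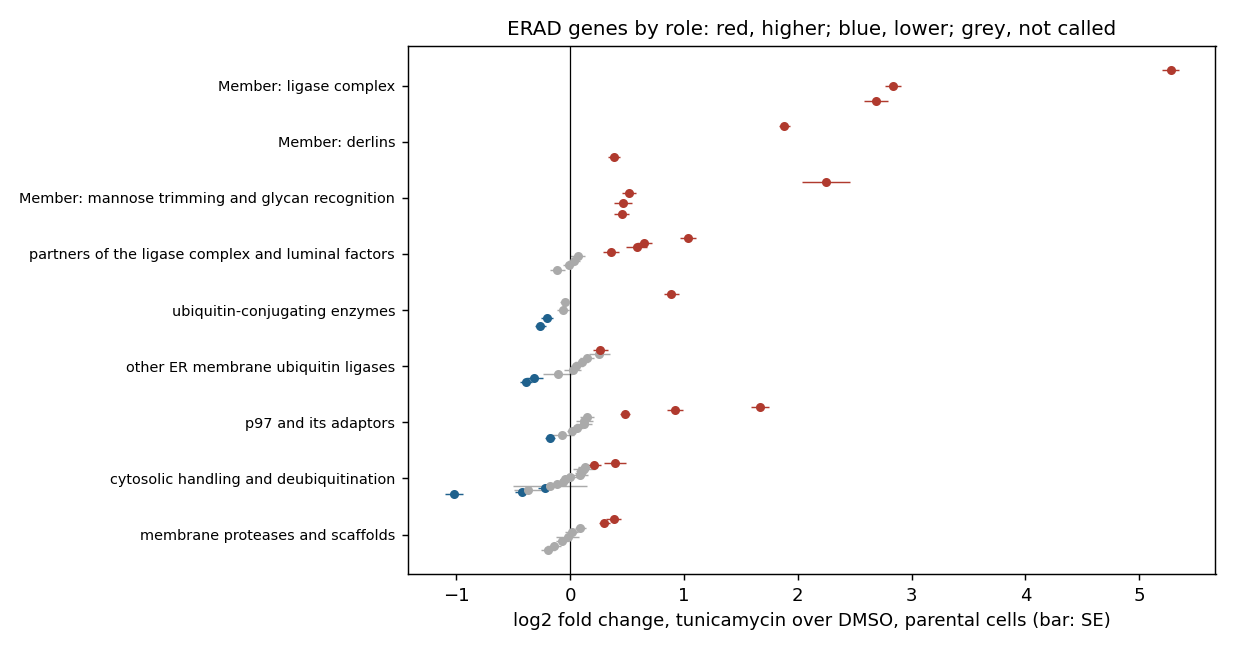
Log2 fold change with tunicamycin in parental cells (horizontal axis; bars are SE) of the 9 counted ERAD components and 56 other ERAD genes, grouped by role; red is called higher, blue called lower and grey not called. The ligase complex, DERL2 and EDEM1 lie between 1.88 and 5.27, while all but SELENOK (1.67), TXNDC11 (1.03) and UBL4A (-1.02) of the other genes lie within a log2 value of 1 of no change.

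The genes whose response over the 8 lines was closest to that of HERPUD1, by the root mean square difference in log2 change, were taken from 8737 genes with a mean of at least 10 CPM. DDIT4, an inhibitor of mTORC1 signalling, was nearest at 0.16, with a mean response of 5.18. CHAC1, which degrades glutathione, followed at 0.32 (mean response 5.44), LURAP1L at 0.37 (5.33), TSC22D3 at 1.01 (4.20) and the stress-induced sestrin SESN2 at 1.11 (4.06). The ERAD genes listed above and the check and marker genes were left out of these 8737 beforehand, so none of them could appear. The measure describes closeness in size over lines and carries no test.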

How the data were processed

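The 32 libraries were made from poly(A) RNA with a directional kit, per the labels' protocols. The deposited values are whole-number counts per gene. STAR 2.7.5c and the build hg38 are named in the submitters' processing notes without their roles; counting tool, strand setting and annotation are not given in the sources used here. Of 60660 rows 42022 carried a symbol, 58385 were found in GENCODE 29 and 22333 had no count; rows without a symbol stayed in the tests. Totals ran from 16651438 to 24913021 (median 21441775.5). Replicate libraries differed beyond counting noise (chi-square per degree of freedom 4.59 to 25.2), so none was counted as a duplicate.

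Tests used edgeR 4.0.16 in R 4.3.3: TMM factors, filterByExpr by group, the quasi-likelihood test and Benjamini-Hochberg adjustment over all genes tested, called at 0.05. A term for the line entered the models of tunicamycin and of the interactions; genotype comparisons had no covariate, and clone comparisons had treatment. Each used only the groups it names. SEs are those implied by the F statistic, and 95% intervals follow from them. DESeq2 1.42.0, other scalings and filters, a replicate block, sums per line and left-out libraries were alternatives. Changes by line are on the log2(CPM) scale with a prior count of 2. Scripts were tested on simulated data.

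The members and lists were chosen with earlier results of these data known. The members were always named. Of the other ERAD genes, those called alike in all 3 genotypes were ranked by their change in parental cells. The 6 largest increases and the 6 largest decreases were named, with any called between genotypes. The 5 genes most like HERPUD1 were also named and came from outside the lists.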

Additional observations from a re-analysis of the deposited data

Results flagged for a closer look

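DERL1 in clone A3 replicate 1 with tunicamycin stood at 137.98 CPM, the highest of the 6 IGF2BP3 knockout tunicamycin libraries. Its gap to the nearest other library (121 CPM) was 0.725 of the whole range, which began at 115 CPM. Of 54 combinations of a gene and a group checked in this way, 1 stood apart like this, and chance gives about 1 in 20. Without this clone all 9 components still rose with tunicamycin in IGF2BP3 knockout cells.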

How the results depend on the processing

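All 9 counted ERAD components were called higher with tunicamycin under each alternative fit in each genotype (12 fits in parental cells, 11 in IGF2BP3 knockout, 12 in IGF2BP2 knockout); the largest adjusted p was 0.0193, for EDEM3 without parental sample 1 replicate 1. With an added minimum log2 fold change of 1 the count was 5 in parental, 5 in IGF2BP3 knockout and 5 in IGF2BP2 knockout cells, since the rule asks for a larger rise. Without the DMSO libraries of clone G6, whose labels disagree, all 9 were still called in IGF2BP2 knockout cells.

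With all 32 libraries in one fit, 2 of 9 were called between the knockouts in tunicamycin (DERL1 and EDEM3), against 0 with only the libraries compared; that fit called 7.59% of genes tested, and the cause was not tested. Leaving out 1 replicate gave 0 to 1 calls among the IGF2BP3 knockout clones (EDEM1 without replicate 1, adjusted p = 0.0324) and 0 to 2 between the parental samples (SEL1L, adjusted p = 0.00397, and EDEM3, adjusted p = 0.00758, without replicate 2). The response among clones was not run without a replicate, since no residual degree of freedom is left.

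Differences of replicate 1 from replicate 2 correlated at 0.0878 to 0.549 over pairs of line and treatment (119 of 120 above 0.1). The 2 replicates thus differed partly in the same way across lines and treatments, but the labels do not say that a number pairs samples. With the replicate block 6 of 9 were called among the IGF2BP2 knockout clones (SYVN1, HERPUD1, DERL1, EDEM1, EDEM2 and EDEM3) against 2 without it, while the share of all genes tested that were called went from 26.4% to 41.3%. The block changed no other count of the 9. It moved all genes called with tunicamycin in parental cells from 3854 to 5989.

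Counts over all genes depended more on the fit. Between the lowest and highest alternative they ran from 2519 to 5989, 3174 to 6865 and 4045 to 7062 for tunicamycin in parental, IGF2BP3 knockout and IGF2BP2 knockout cells, the first 2 of these lows being without parental sample 1 replicate 1 and without clone E4. In DMSO they ran from 47 to 513 for IGF2BP3 knockout against parental, 1 to 156 for IGF2BP2 knockout against parental and 1 to 925 between the knockouts, and in tunicamycin from 29 to 491, 0 to 245 and 1 to 1186. Among clones they ran from 1068 to 2903 (IGF2BP3 knockout) and 2158 to 5917 (IGF2BP2 knockout), and between the parental samples from 0 to 306. For the interactions they ran from 0 to 1 (IGF2BP3 knockout against parental), 0 to 0 (IGF2BP2 knockout against parental) and 0 to 2 (between the knockouts), and for the response among clones from 0 to 2 and 0 to 68.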
